A study of Mus musculus with 36 samples.

Results

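Lavage macrophages of Scnn1b-Tg pups were compared between postnatal day (PND) 3 and PND 0, the day of birth. The samples were chosen by title alone, and they are 7 of the 36 arrays of the macrophage series: 4 pools at PND 3 and 3 pools at PND 0. Each pool held cells of 3 transgenic pups of the C57Bl/6N Tac strain, housed specific-pathogen-free (SPF), and each was hybridised to 1 Affymetrix Mouse Gene 1.0 ST array. Scnn1b-Tg mice carry extra Scnn1b, a subunit gene of the epithelial sodium channel, under the Scgb1a1 promoter, which is active in airway club cells and not in macrophages. The same ages of non-transgenic wild-type (WT) mice of that strain and housing, with 4 pools at PND 3 and 3 pools at PND 0, were used to test whether an age change differed with genotype. They share no array with the transgenic pools. In all groups, cells were washed from the airspaces and passed over an anti-Ly-6G column, which holds back neutrophils. The unbound cells are called macrophages here, as in the study, although such a preparation can hold lymphocytes, dendritic cells and epithelial cells.

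The airspaces of the lung fill with air at birth, and alveolar macrophages take their adult form in the days that follow. They arise from fetal monocytes that colonise the lung before birth. Under the growth factor GM-CSF and its downstream regulator PPAR-gamma, these cells acquire the surface lectin Siglec-F and the integrin CD11c, multiply, and take up surfactant lipid. In Scnn1b-Tg mice the sodium channel draws liquid from the airway surface over the same days, mucus thickens, and the airways become obstructed and inflamed.

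All levels are log2 signals after robust multi-array averaging (RMA), so that a difference of 1 is a 2-fold change. The array medians lay between 3.72 and 4.06, and a group mean at or below 4.06 is called near background. A change measured against a level near background can understate the true one. Pools of 1 group correlated at 0.986 to 0.991 among the Scnn1b-Tg PND 3 pools and at 0.965 to 0.973 among the Scnn1b-Tg PND 0 pools, and their standard deviations across features were 0.958 and 1.28 times the average of all groups. Scnn1b itself measured 5.37, 6.03, 5.47 and 6.00 in the Scnn1b-Tg PND 3 pools, against 10.23, 10.33 and 5.47 in the Scnn1b-Tg PND 0 pools. In WT it was 3.25, 3.18, 3.55 and 3.09 at PND 3, and 4.06, 5.27 and 6.68 at PND 0. Each transgenic pool at PND 3 was above each WT pool of that age, while the library labelled Scnn1b-Tg PND 0 replicate 3 lay inside the WT range, so that this gene does not bear out its label. That library was also the 1 transgenic pool at birth with a high level of Xist, the RNA of the inactive X chromosome in females (9.50, against 3.10 and 3.35 in the other two). At PND 3, Xist was 3.11, 7.48, 8.02 and 7.51, so that some pools at both ages held female RNA although the study's methods name male mice. The values do not tell a female pool from one of mixed sex. Xist was looked at after its values had been seen, and adding it to the model left the total near its value, at 3189 features.

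A feature was called where its adjusted p was at most 0.05 and its change at least 2-fold. Between PND 3 and PND 0 the transgenic cells changed widely: 1425 of 23099 annotated features were called higher at PND 3 (6.17%) and 1755 lower (7.6%), which is 13.8% in all. Falls were the deeper changes. The median size among called features was 1.37 for those higher and 1.73 for those lower, and 117 features fell by more than 16-fold, against 18 that were higher by as much. Without the library labelled Scnn1b-Tg PND 0 replicate 3 the counts were 1571 higher and 1857 lower. At the adjusted p alone, the rule used below for a single gene or list member, 18.6% of annotated features rose and 15.8% fell. Features whose 4 pools at PND 3 all lay above the 3 pools at PND 0 made up 20.1%, and those whose pools all lay below 15.1%. The split between higher and lower depends on the scale. The median over analysed features shifted by -0.25 at PND 3, and with every array centred on its own median 2381 features were called higher and 1377 lower, a share of higher calls of 63.4% in place of 44.8%. The gene groups named below as rising or falling kept the direction of their median under that centring, except the interferon-stimulated and ribosome biogenesis lists, whose medians were near 0.

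Inflammatory genes led the rises, with the 3 described first among the 4 largest of all annotated features. Acod1, the enzyme that makes itaconate in activated macrophages, measured 9.92, 10.53, 10.49 and 9.39 in the Scnn1b-Tg PND 3 pools, against 4.05, 3.09 and 3.09 in the Scnn1b-Tg PND 0 pools. That is a change of 6.67 ± 0.58 (SE; adjusted p = 1.37e-10, limma), or 102-fold, from a level near background at birth. Saa3, an acute-phase protein, measured 9.77, 10.64, 11.37 and 9.26 at PND 3, against 3.32, 5.01 and 4.52 at PND 0. Inhba, which encodes a subunit of activin A, measured 9.72, 10.13, 9.58 and 9.01 at PND 3, against 4.40, 3.37 and 4.67 at PND 0. In none of the 3 genes did the ages overlap, and the changes were 5.98 ± 0.70 for Saa3 and 5.46 ± 0.53 for Inhba (SE; adjusted p = 5.08e-08 and 1.4e-09). Il1b, the secreted pyrogen interleukin-1 beta, followed with 9.67, 10.12, 10.20 and 9.49 at PND 3, against 5.79, 5.52 and 6.19 at PND 0, a rise of 4.04 ± 0.39. Its relative Il1f9, interleukin-36 gamma, averaged 8.48 ± 0.58 at PND 3 and 3.25 ± 0.15 at PND 0 (SD, n = 4 and 3), a rise of 5.23.

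Of the 27 measured inflammatory cytokines and mediators, 18 rose and 3 fell. Among the risers outside those already given were the growth factor Csf1 (3.09), the neutrophil growth factor Csf3 (2.27), Nos2, which makes nitric oxide (3.05), the growth factor ligand Ereg (2.22), Il1a (2.27), Tnf (1.98), Il10 (1.46) and Il6 (1.31), each as a log2 change. Il12b, Il23a, Il27, Csf2, Lif and Osm did not pass the test, with changes between 0.18 and 0.65. The 3 that fell encode growth and vessel factors: Hbegf, a ligand of the epidermal growth factor receptor (-1.99), the vasoconstrictor endothelin Edn1 (-1.15) and Vegfa (-1.0). The plot of 8 inflammatory genes by pool shows the ages apart in Scnn1b-Tg and the WT pools beside them.

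**Figure D1:**
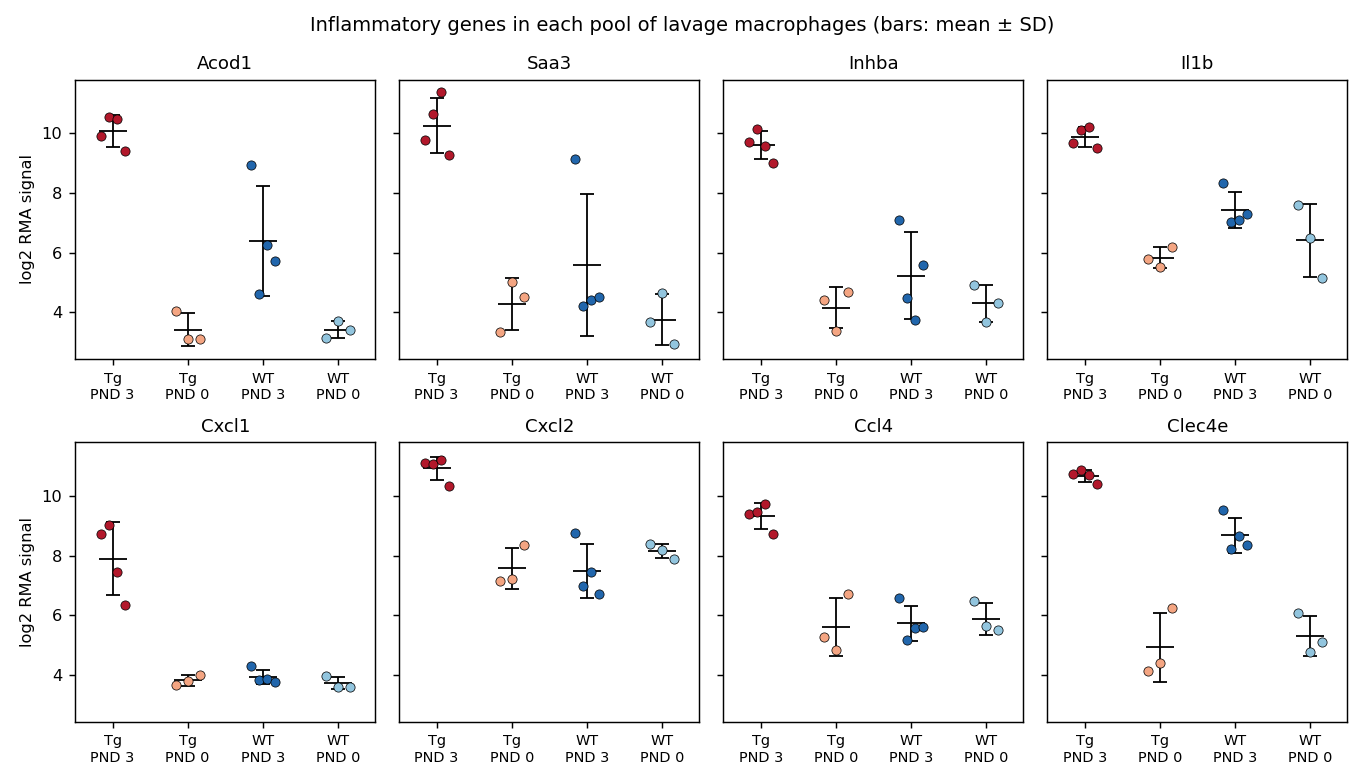
Log2 RMA signal of 8 inflammatory genes (vertical axis) in each pool of Scnn1b-Tg and WT lavage macrophages at PND 3 and PND 0 (horizontal axis). Points are pools, and bars are the mean and SD of the group. In each gene the 4 Scnn1b-Tg PND 3 pools lie above the 3 Scnn1b-Tg PND 0 pools, and 1 WT PND 3 pool lies above the other WT PND 3 pools, at 9.15 for Saa3 and 8.95 for Acod1.

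Chemokines moved in both directions. Of the 14 CXC chemokines 7 rose and 4 fell, and of the 15 CC chemokines 4 rose and 5 fell. Cxcl1, Cxcl2 and Cxcl3 draw neutrophils through the receptor CXCR2. Cxcl1 measured 8.74, 9.04, 7.46 and 6.36 in the Scnn1b-Tg PND 3 pools, against 3.65, 3.78 and 4.01 in the Scnn1b-Tg PND 0 pools, a rise of 4.08 ± 0.40 (SE; adjusted p = 1.78e-09). Cxcl3 measured 10.16, 10.12, 9.88 and 9.13 at PND 3, against 4.89, 4.78 and 6.80 at PND 0, a rise of 4.33 ± 0.54. Cxcl2 was already well above background at birth: it measured 11.11, 11.07, 11.19 and 10.35 at PND 3, against 7.15, 7.22 and 8.36 at PND 0, a rise of 3.35 ± 0.38. The 4th PND 3 pool was the lowest of its age in all 3 genes, and above every PND 0 pool in each. Ccl3, Ccl4 and Ccl5 draw monocytes and T cells. Ccl4 averaged 9.33 ± 0.42 at PND 3 and 5.61 ± 0.97 at PND 0, Ccl3 averaged 11.24 ± 0.38 and 9.20 ± 0.50, and Ccl5 averaged 7.42 ± 0.90 and 4.09 ± 0.24 at the same ages (SD, n = 4 and 3). The membrane-bound chemokine Cxcl16 and the chemerin-binding receptor Ccrl2 rose by 2.28 and 4.35. The monocyte chemokine Ccl2 changed by 1.12 and did not pass (adjusted p = 0.123). Of the CC chemokines, Ccl7 also rose (1.22), and Ccl6, Ccl11, Ccl12 and Ccl22 fell by 0.35 to 1.69. The deepest fall of that family was that of Ccl17, a ligand of CCR4, with an average of 6.46 ± 0.54 at PND 3 and 9.46 ± 0.70 at PND 0. The 4 CXC chemokines that fell were Cxcl15, the lung chemokine of airway and alveolar epithelium (-3.84), the platelet chemokines Ppbp (-2.76) and Pf4 (-1.45), and the stromal Cxcl12 (-1.47). With each array centred on its median, 2 CC chemokines fell in place of 5.

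The promoters of Cxcl1, Cxcl2 and Cxcl3 are shown because these neighbouring genes rose together and hold the same 10-base word in the same part of the window. They are RefSeq sequences of build GRCm38.p6 on the plus strand, with 250 bases before and 50 after the gene's start. Capitals mark GGGAATTTCC, a form of the kB motif to which NF-kB binds.
Cxcl1, chr5:90890995-90891294: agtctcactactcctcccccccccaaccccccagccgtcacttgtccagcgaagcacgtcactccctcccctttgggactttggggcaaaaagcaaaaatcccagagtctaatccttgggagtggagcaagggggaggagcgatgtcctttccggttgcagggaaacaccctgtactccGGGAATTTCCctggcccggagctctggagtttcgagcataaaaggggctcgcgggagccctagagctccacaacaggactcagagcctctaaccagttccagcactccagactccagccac
Cxcl2, chr5:90903649-90903948: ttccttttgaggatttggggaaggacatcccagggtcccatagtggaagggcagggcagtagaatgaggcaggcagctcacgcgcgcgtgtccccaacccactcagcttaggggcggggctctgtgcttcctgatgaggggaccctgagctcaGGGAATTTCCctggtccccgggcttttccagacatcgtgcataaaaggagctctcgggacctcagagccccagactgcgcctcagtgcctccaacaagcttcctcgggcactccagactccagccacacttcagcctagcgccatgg
Cxcl3, chr5:90785851-90786150: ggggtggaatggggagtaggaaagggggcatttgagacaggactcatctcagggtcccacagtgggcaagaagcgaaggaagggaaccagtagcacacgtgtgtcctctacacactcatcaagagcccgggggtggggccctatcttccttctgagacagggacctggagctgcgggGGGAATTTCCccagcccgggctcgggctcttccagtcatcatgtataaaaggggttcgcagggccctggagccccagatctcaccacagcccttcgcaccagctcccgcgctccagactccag
The word begins 71, 97 and 73 bases before the start of Cxcl1, Cxcl2 and Cxcl3, each window holding it 1 time on this strand. The wider kB motif (GGGA, any 4 bases, then CC), which takes in GGGAATTTCC and was searched on both strands with overlaps allowed, stood in the windows of 14 of the 22 NF-kB list and chemokine genes that rose and have a promoter in the table, of 28 that rose (63.6%). Of those 28 genes, 17 come from the list of NF-kB targets, so that the share describes that list as much as the rise. The motif stood in 22.9% of all 27025 genes with a promoter. GGGAATTTCC itself stood in 4 of the 22 and in 29 of all genes. The word was picked because Cxcl1, Cxcl2 and Cxcl3 share it. These genes are among the 4, so that most of that count was fixed in advance. A match describes the letters of the window and was not set against any measure of binding.

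Genes that NF-kB switches on, among them its own inhibitors, rose as a group: 17 of 20 measured members rose, none fell, and their median change was 1.87, beside 0.04 over all annotated features. Nfkbie, an inhibitor that holds NF-kB in the cytoplasm, measured 6.58, 6.83, 6.53 and 6.97 in the Scnn1b-Tg PND 3 pools, against 3.27, 3.63 and 3.72 in the Scnn1b-Tg PND 0 pools. Nfkbid, a nuclear member of the same family, measured 6.09, 6.70, 6.88 and 6.38 at PND 3, against 3.66, 3.69 and 3.63 at PND 0. Both were near background at birth and clear of it in every pool at PND 3, with changes of 3.19 ± 0.20 and 2.85 ± 0.19 (SE). Tnip3 and Tnip1, which bind the deubiquitinase A20 and restrain the pathway, rose by 2.90 and 2.75, and A20 itself, Tnfaip3, by 2.16. Ier3, Traf1 and Cd40 were the 3 that did not pass, with changes of 0.21, 0.53 and 0.25.

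The microRNA gene whose product miR-146a restrains the same pathway also rose. Its feature, labelled Mir146, measured 4.17, 4.86, 5.47 and 3.95 in the Scnn1b-Tg PND 3 pools, against 3.13, 3.26 and 3.33 in the Scnn1b-Tg PND 0 pools, a rise of 1.37 ± 0.22 (SE; adjusted p = 8.07e-06). It was picked after its values were seen. Such features report RNA that covers the hairpin, and the mature form was not measured. The mature sequences of the 3 microRNAs named in the text are given with the seed, bases 2 to 8, in capitals (RefSeq, GRCm38.p6), and no 2 of them share a seed.
mmu-miR-146a-5p, chr11:43374435-43374456, minus strand: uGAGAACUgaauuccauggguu
mmu-miR-675-5p, chr7:142577112-142577133, minus strand: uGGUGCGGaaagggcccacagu
mmu-miR-451a, chr11:78073186-78073207, plus strand: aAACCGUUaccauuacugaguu

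Receptors that sense microbes rose with them. Of 21 measured pattern-recognition receptors and adaptors 19 rose and none fell. Clec4e, the lectin Mincle that binds mycobacterial and damaged-cell lipids, measured 10.75, 10.86, 10.69 and 10.39 in the Scnn1b-Tg PND 3 pools, against 4.13, 4.39 and 6.24 in the Scnn1b-Tg PND 0 pools, a rise of 5.75 ± 0.38 (SE; adjusted p = 4.74e-13). The endotoxin receptor parts Cd14 and Ly96 rose by 1.98 and 2.16, and the inflammasome sensor Nlrp3 by 2.03. Cd14 averaged 10.65 ± 0.23 at PND 3 and 8.67 ± 0.33 at PND 0 (SD, n = 4 and 3). Tlr3 and Tlr5 did not pass, at 0.38 and 0.25.

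Neutrophil and monocyte genes need to be read with the cell preparation. Of 26 measured neutrophil genes 14 rose and 2 fell, and the mean signal of the list lay between 6.12 and 7.07 in the Scnn1b-Tg PND 3 pools and between 5.02 and 5.65 in the Scnn1b-Tg PND 0 pools. The risers included the protease inhibitors Csta3 (5.22) and Stfa3 (3.83), the calprotectin subunit S100a9 (3.06), the growth factor receptor Csf3r (3.00) and the chemokine receptors Cxcr1 (2.40) and Cxcr2 (2.93). Csta3 measured 10.28, 10.39, 11.02 and 9.91 at PND 3, against 5.91, 4.39 and 5.25 at PND 0. The granule genes that mark neutrophil precursors, Elane, Mpo, Prtn3, Ctsg and Camp, were near background at both ages, with group means between 2.91 and 3.88, so that their changes of -0.10 to 0.09 are of little weight. Whether neutrophils left after the column had a part in the inflammatory rises was not tested, and in bulk RNA a change in the number of cells of a type cannot be told apart from a change in RNA per cell. The 2 that fell were Cd177 (-1.35) and Ltf, lactoferrin of neutrophil granules and of airway glands, with an average of 4.62 ± 0.27 at PND 3 and 9.61 ± 0.16 at PND 0. S100a9 measured 10.62, 11.11, 11.90 and 10.81 at PND 3, against 9.62, 5.68 and 8.84 at PND 0, and without Scnn1b-Tg PND 0 replicate 2 its change was 1.88 (adjusted p = 0.123). Lcn2, the siderophore-binding lipocalin, measured 10.58, 11.26, 11.65 and 10.07 at PND 3, and was already high at PND 0, at 9.30, 9.06 and 8.07. Its rise of 2.08 ± 0.76 (SE; adjusted p = 0.0373) did not pass in 12 alternatives, among them those without any 1 of the PND 0 pools or without PND 3 replicate 2 or 3, where the change was 1.71 to 2.33.

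Of 25 measured monocyte genes 14 rose and 2 fell. Treml4, a receptor of patrolling monocytes, averaged 8.42 ± 0.20 in the Scnn1b-Tg PND 3 pools and 4.35 ± 0.65 in the Scnn1b-Tg PND 0 pools, and Clec4d, the lectin partner of Clec4e, averaged 9.41 ± 0.34 and 5.68 ± 0.56 at the same ages (SD, n = 4 and 3). The chemokine receptor of blood monocytes, Ccr2, changed by -0.39 and did not pass (adjusted p = 0.181). The 2 that fell were Lyz1 and Vcan. The lysozyme Lyz1, which is also counted here with the alveolar type 2 genes, fell by 3.13 ± 0.20 (SE), while the lysozyme Lyz2 rose by 0.76. Vcan, a matrix proteoglycan of inflammatory monocytes and fibroblasts, fell by 1.85 ± 0.44 (SE). Vcan did not pass when the 7 transgenic arrays were fitted alone (adjusted p = 0.0597).

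Cell-cycle genes rose together. All 26 measured mitosis genes and 25 of 28 DNA replication genes rose, with median changes of 1.48 and 1.02, and in each of the 26 mitosis genes the 4 pools at PND 3 lay above the 3 at PND 0. Bub1, a kinase of the spindle checkpoint, measured 7.07, 7.12, 6.53 and 7.11 in the Scnn1b-Tg PND 3 pools, against 3.93, 4.2 and 5.0 in the Scnn1b-Tg PND 0 pools, a rise of 2.58 ± 0.21 (SE; adjusted p = 3.36e-11). Kif2c, a motor that depolymerises microtubules, averaged 5.82 ± 0.12 at PND 3 and 3.44 ± 0.03 at PND 0 (SD, n = 4 and 3). Rrm2, the inducible subunit of ribonucleotide reductase, measured 8.28, 8.40, 7.25 and 7.92 at PND 3, against 6.16, 5.82 and 6.25 at PND 0, and Mcm5, a subunit of the replicative helicase, rose by 1.43. The proliferation marker Mki67 rose by 0.91.

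Genes that define the alveolar macrophage did not move as 1 block. Of 30 measured members 18 rose and 4 fell. Siglecf, the lectin that marks these cells, measured 7.84, 7.34, 7.96 and 8.29 in the Scnn1b-Tg PND 3 pools, against 4.99, 5.58 and 5.76 in the Scnn1b-Tg PND 0 pools. Itgax, which encodes CD11c, measured 9.78, 9.77, 10.10 and 10.24 at PND 3, against 6.39, 7.24 and 7.70 at PND 0. Every PND 3 pool lay above every PND 0 pool in both, with rises of 2.41 ± 0.21 and 2.86 ± 0.19 (SE). Among the others that rose were the lipid carrier Fabp1 (3.00), the secreted chitinase-like Chil3 (2.43) and both GM-CSF receptor chains, Csf2ra (1.22) and Csf2rb (1.11). The list's regulator Pparg measured 8.29, 8.26, 7.90 and 8.38 at PND 3, against 7.87, 8.31 and 8.58 at PND 0, and the mannose receptor Mrc1 averaged 10.08 ± 0.19 and 9.97 ± 0.25 (SD, n = 4 and 3). Their changes of -0.04 ± 0.15 and 0.11 ± 0.11 (SE) did not pass, although Mrc1 passed with arrays centred on their medians (0.35). The scavenger receptor Marco rose by 0.85, and without PND 0 replicate 1 its change was 0.55 (adjusted p = 0.135). Car4, a carbonic anhydrase, was high at both ages, at 10.68 ± 0.15 at PND 3 and 11.01 ± 0.21 at PND 0 (SD, n = 4 and 3). Its small fall (-0.33, adjusted p = 0.0132) did not pass with arrays centred on their medians (-0.09), nor without replicate 3 of PND 3 (-0.26) or of PND 0 (-0.24). Fabp4, a fatty-acid carrier and target of PPAR-gamma, fell: it measured 6.5, 6.05, 6.22 and 6.57 at PND 3, against 8.17, 7.86 and 8.24 at PND 0, a change of -1.76 ± 0.34 (SE; adjusted p = 0.000135). Of the 30 members, Fabp1 was near background at birth and Kcnip4 at both ages. With arrays centred on their medians 24 rose and 2 fell.

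Lysosomal genes rose almost throughout, 27 of 29 measured, with none falling and a median of 0.79. Ctsk, the collagen-degrading cathepsin K, stood out at 10.84 ± 0.21 in the Scnn1b-Tg PND 3 pools and 7.02 ± 0.78 in the Scnn1b-Tg PND 0 pools (SD, n = 4 and 3), a rise of 3.82, and Gla, which degrades glycolipid, rose by 2.13. Abca1, which exports cholesterol, measured 8.71, 8.66, 9.04 and 8.65 at PND 3, against 4.87, 4.65 and 5.03 at PND 0, a rise of 3.92 ± 0.19 (SE). Slc7a11, the cystine importer of the Nrf2 antioxidant programme, rose by 4.16, and 11 of the 20 measured Nrf2 targets rose while 4 fell. Pla2g7, an enzyme that inactivates platelet-activating factor, the metal transporter of phagosomes Slc11a1 and the fatty-acid receptor Gpr84 rose by 4.68, 4.65 and 4.56. Of 24 genes of lipid uptake, storage and oxidation 8 rose and 5 fell, against 16 and 3 with arrays centred on their medians, and Lpl, lipoprotein lipase, rose by 0.77.

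Of 27 measured genes of glycolysis and of the response to hypoxia 17 rose and 1, Vegfa, fell. Genes of the hypoxia response were mixed. Hilpda (1.16), P4ha1 (0.96) and Car9 (0.84) rose, while Egln3, Ankrd37, Pdk1, Bnip3, Adm and Ndrg1 did not pass, with changes between -0.55 and 0.83. Slc16a3, which exports lactate, measured 7.09, 7.73, 7.31 and 7.37 in the Scnn1b-Tg PND 3 pools, against 5.16, 5.46 and 5.12 in the Scnn1b-Tg PND 0 pools, a rise of 2.13 ± 0.15 (SE; adjusted p = 2.53e-12). Pfkl, a phosphofructokinase, averaged 7.10 ± 0.31 at PND 3 and 5.46 ± 0.30 at PND 0 (SD, n = 4 and 3), and Hif1a, the oxygen-regulated transcription factor, rose by 0.58. Oxidative phosphorylation genes had 3 of 27 rising and a median of 0.11, though 14 of 27 rose with arrays centred on their medians. Of 30 genes of ribosome biogenesis 1 rose and 4 fell, with a median of -0.13, and 8 rose and 1 fell under the centring, with a median of 0.12. Cholesterol synthesis had 5 of 20 rising and 1 falling, against 10 and 0 under the centring, and the interferon-stimulated genes 8 of 26 rising and 3 falling, with a median of -0.04, against 0.20 under the centring.

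Markers of alternative activation and tissue remodelling were mixed. Of 18 alternative-activation genes 7 rose and 4 fell: the lipid receptor Trem2 rose by 2.36, Arg1, the arginase, by 1.80, and the resistin-like Retnla fell by 2.82. Arg1 measured 7.41, 8.61, 8.54 and 7.49 in the Scnn1b-Tg PND 3 pools, against 5.63, 6.04 and 6.96 in the Scnn1b-Tg PND 0 pools, with an adjusted p of 0.0467 that did not pass in 13 alternatives, among them those without replicate 1 or 2 of PND 0 or replicate 2 or 3 of PND 3, where the change was 1.51 to 1.72. Of 19 matrix proteases and inhibitors 7 rose and 3 fell. Mmp12, the macrophage elastase, averaged 9.60 ± 0.52 at PND 3 and 7.76 ± 1.01 at PND 0, and the membrane protease Mmp14 averaged 9.50 ± 0.29 and 7.08 ± 0.38 at the same ages (SD, n = 4 and 3). Of 21 genes of fetal and tissue-resident macrophages 7 rose, among them the CSF1 receptor Csf1r (1.98), and 6 fell. The counts of the lymphoid and dendritic lists depend on the scale: 2 of 17 T and innate lymphoid genes rose and 1 fell, 2 of 13 B cell genes rose and 3 fell, 1 of 10 NK cell genes rose and none fell, and 3 of 16 dendritic cell genes rose and 3 fell. With arrays centred on their medians, 7 T and innate lymphoid, 7 B cell, 3 NK cell and 6 dendritic cell genes rose, and 0, 3, 0 and 2 fell. That centring also gave 11 rises and 3 falls among the matrix proteases and inhibitors, and 8 and 3 among the fetal and tissue-resident genes.

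**Figure D2:**
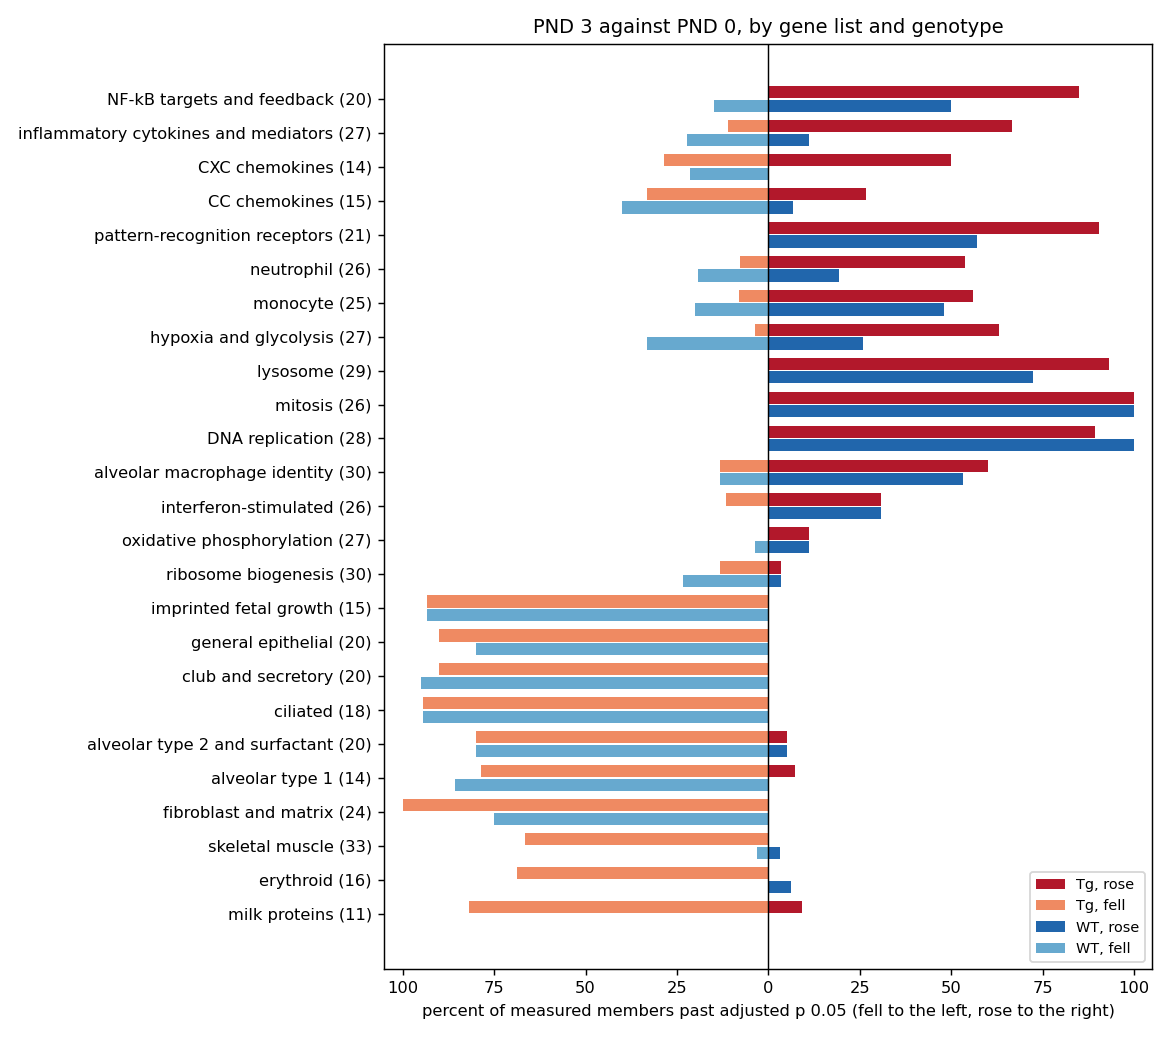
Percent of the measured members of 25 gene lists (their number in brackets) that rose, to the right, or fell, to the left, at an adjusted p of 0.05 between PND 3 and PND 0, for Scnn1b-Tg (Tg) in red and orange and WT in dark and light blue. In Scnn1b-Tg, 17 of 20 NF-kB genes, 27 of 29 lysosomal genes and all 26 mitosis genes rose, and 18 of 20 epithelial genes and all 24 fibroblast genes fell.

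Epithelial genes led the falls. Of 20 club and secretory cell genes 18 fell, of 18 ciliated cell genes 17, of 20 general epithelial genes 18, of 20 alveolar type 2 genes 16 and of 14 alveolar type 1 genes 11, and the medians lay between -2.0 and -3.82. Agr2, a disulphide isomerase of mucus-secreting cells, measured 4.64, 4.55, 3.67 and 4.29 in the Scnn1b-Tg PND 3 pools, against 11.87, 11.81 and 11.59 in the Scnn1b-Tg PND 0 pools. At -7.47 ± 0.23 (SE; adjusted p = 8.18e-21) this was the deepest fall among all annotated features. Muc5b, the main secreted airway mucin, measured 5.96, 5.02, 4.81 and 4.30 at PND 3, against 11.93, 11.99 and 11.77 at PND 0, and Chad, a matrix protein counted here with the secretory genes, 4.04, 3.83, 4.23 and 3.77, against 11.38, 11.49 and 10.90. In these 3 genes the highest PND 3 pool, at 5.96, lay far under the lowest PND 0 pool, at 10.90. Scgb1a1, the source of the transgene promoter and a major product of club cells, fell less, with 8.67, 8.41, 8.39 and 8.57 at PND 3, against 12.09, 11.96 and 11.71 at PND 0, a change of -3.41 ± 0.46 (SE).

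The other epithelial lists moved alike. Sftpc, surfactant protein C of type 2 cells, averaged 5.99 ± 0.50 in the Scnn1b-Tg PND 3 pools and 11.04 ± 0.16 in the Scnn1b-Tg PND 0 pools, and Sftpb 3.90 ± 0.45 and 8.76 ± 0.46 at the same ages (SD, n = 4 and 3). The type 1 cell genes Emp2 and Ager fell by 4.96 and 3.95, the keratins Krt18 and Krt15 by 5.19 and 5.30, and the cilium gene Lrrc23 by 3.41. Lypd2, the trefoil peptide Tff2 and Oit1 fell by 6.31, 5.77 and 5.83, each to a level near background. Pdpn, podoplanin, listed as a type 1 cell gene and also made by inflammatory macrophages, went the other way, at 8.92, 9.52, 8.43 and 8.65 at PND 3, against 6.47, 6.38 and 6.70 at PND 0, a rise of 2.36 ± 0.41 (SE). The mean signal of the 20 general epithelial genes was between 4.55 and 4.74 in the PND 3 pools and between 6.98 and 7.63 in the PND 0 pools. It moved together with every rise described above, since both follow the age, and its part in those rises was not tested.

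Fetal growth genes that are imprinted, that is expressed from 1 parental copy, fell together: 14 of 15 measured, with a median of -3.30. Igf2, the fetal growth factor, measured 3.91, 3.77, 3.28 and 3.64 in the Scnn1b-Tg PND 3 pools, against 9.76, 8.83 and 9.72 in the Scnn1b-Tg PND 0 pools, a fall of 5.79 ± 0.19 (SE; adjusted p = 5.47e-20). Meg3, a long non-coding RNA, measured 3.09, 2.84, 2.89 and 3.77 at PND 3, against 8.98, 10.03 and 9.13 at PND 0. Its neighbour on chromosome 12, Dlk1, and the zinc finger gene Peg3 fell by 4.26 and 4.84. All 4 were near background at PND 3. The feature of Mir675, whose hairpin lies inside the imprinted RNA H19, measured 3.03, 3.00, 2.87 and 2.97 at PND 3, against 10.09, 8.04 and 9.57 at PND 0, a fall of 6.27 ± 0.25 (SE), and cannot be told apart from H19. Igf2r, which clears Igf2, was the member that did not pass, at 0.91 (adjusted p = 0.13). Between Dlk1 and Dio3, where many microRNA genes follow Meg3, 12 of 36 microRNA features fell and none rose, while 8 of the other 270 fell and 5 rose. Of the 36 features, 29 were near background at both ages, and their median change was -0.22.

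Connective-tissue genes fell, 24 of 24 fibroblast and matrix genes with a median of -2.68, but unevenly among the pools at birth. With arrays centred on their medians 22 fell. In 19 of the 24 every PND 3 pool lay below every PND 0 pool. Tcf21, a transcription factor of lung fibroblasts, measured 3.10, 3.00, 3.04 and 3.35 in the Scnn1b-Tg PND 3 pools, against 10.72, 8.60 and 10.73 in the Scnn1b-Tg PND 0 pools. Col1a1, the alpha-1 chain of type I collagen, measured 3.96, 3.74, 3.79 and 3.81 at PND 3, against 7.95, 5.04 and 7.63 at PND 0. Replicate 2 at birth was the lowest in both and in Mfap5, a microfibril protein, at 6.41 beside 9.08 and 8.58. The matrix protein Sparc, the protease inhibitor Timp3 and the oxygenase Fmo2 fell by 5.30, 5.75 and 6.48. Of 14 genes of smooth muscle and pericytes 12 fell and 1 rose.

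Genes typical of tissues outside the airspace were high in the transgenic pools at birth. Of 33 skeletal muscle genes 22 fell and none rose. Acta1, skeletal actin, measured 3.47, 3.36, 3.19 and 3.49 in the Scnn1b-Tg PND 3 pools, against 9.90, 8.62 and 8.85 in the Scnn1b-Tg PND 0 pools, and Tnnc2, fast troponin C, measured 3.17, 3.05, 2.93 and 3.06, against 8.67, 7.68 and 7.74. All 3 pools at birth carried these RNAs and every pool at PND 3 was at or under 3.49, with falls of 5.75 ± 0.23 and 4.98 ± 0.19 (SE; adjusted p = 2.39e-18 and 9e-19). The fast troponin T gene Tnnt3 fell by 4.34, and 9 of 13 cardiac muscle genes fell.

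Other such genes varied from pool to pool. Of 11 milk protein genes 9 fell and 1, Xdh, rose by 1.5. Csn2, beta-casein, measured 4.30, 4.62, 4.15 and 4.69 in the Scnn1b-Tg PND 3 pools, against 8.91, 6.46 and 11.23 in the Scnn1b-Tg PND 0 pools, highest in replicate 3. Csn1s2a and Glycam1 fell by 4.31 and 3.59. Of 16 erythroid genes 11 fell, and only replicates 1 and 3 at birth were high. Slc4a1, the red cell anion exchanger, measured 5.90, 6.40, 5.42 and 5.55 at PND 3, against 10.73, 3.97 and 9.95 at PND 0, and Mir451a, the feature of a microRNA abundant in red cells, 3.78, 3.68, 3.73 and 3.63, against 6.58, 3.56 and 5.25. Leaving out replicate 1 left 7 erythroid genes falling, and Slc4a1 then no longer passed (-1.14, adjusted p = 0.34), nor did it without replicate 3 (-1.53, adjusted p = 0.211) or without PND 3 replicate 3 (-2.26, adjusted p = 0.051). Tg, the thyroglobulin gene, measured 3.70, 3.57, 3.38 and 3.66 at PND 3, against 11.58, 3.42 and 8.48 at PND 0, the widest gap between birth pools among the named genes. The interferon-stimulated Rsad2 measured 6.32, 7.04, 5.39 and 5.39 at PND 3, against 10.55, 5.09 and 9.73 at PND 0, the same order among the birth pools. It did not pass without replicate 1 (-1.38, adjusted p = 0.154) or replicate 3 at birth (-1.78, adjusted p = 0.0803). With the 7 transgenic arrays fitted alone, 1 erythroid gene and 3 milk protein genes fell.

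**Figure D3:**
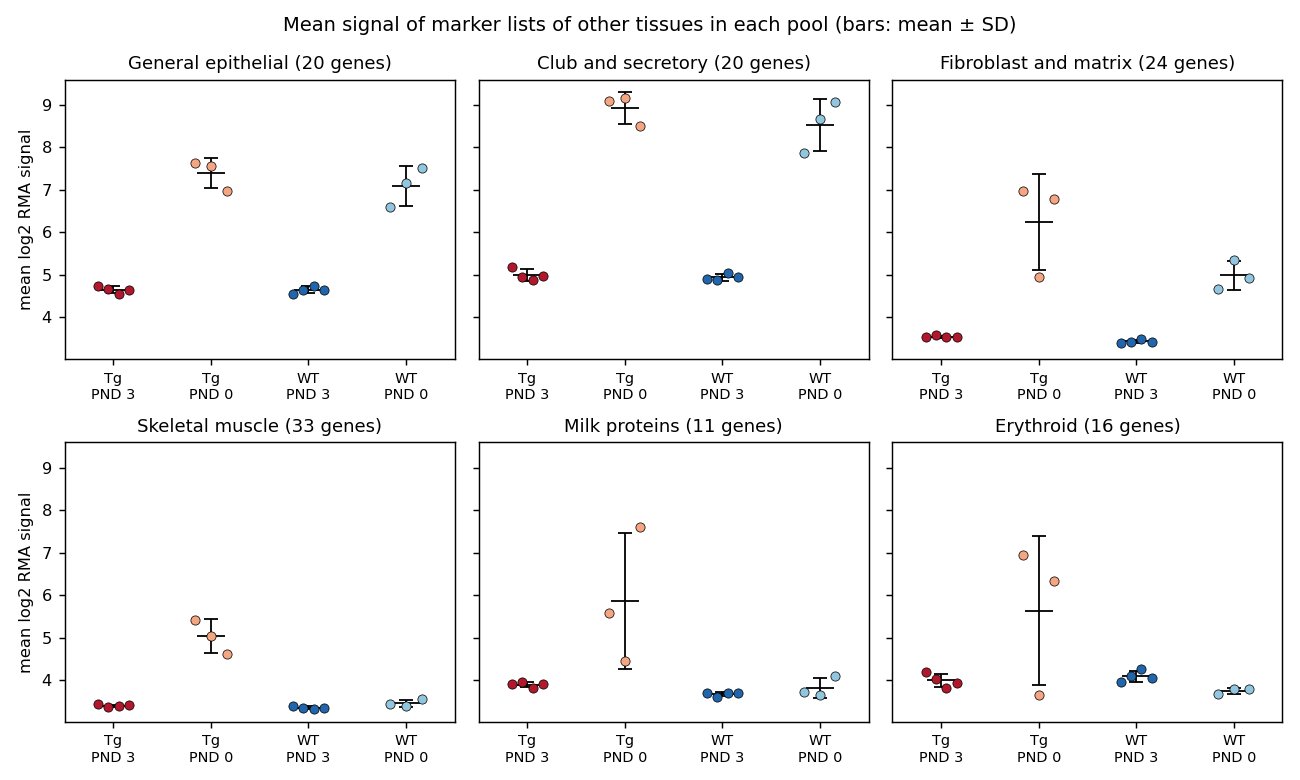
Mean log2 RMA signal of 6 marker lists (vertical axis; number of genes in brackets) in each pool of Scnn1b-Tg and WT lavage macrophages at PND 3 and PND 0 (horizontal axis). Points are pools, and bars are the mean and SD of the group. Epithelial lists are high at birth in both genotypes, while the skeletal muscle list is between 4.62 and 5.42 in the Scnn1b-Tg PND 0 pools and at most 3.55 in the WT PND 0 pools.

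The same age step was measured in WT. There, 1285 features were called higher at PND 3 (5.56%) and 1341 lower (5.81%), which is 11.4% in all, and at the adjusted p alone 16.4% rose and 13.2% fell. Of the 1425 features called higher in Scnn1b-Tg, 731 were also called higher in WT, which is 51.3% of the transgenic and 56.9% of the WT calls. Of the 1755 called lower, 1102 were also called lower in WT, which is 62.8% and 82.2%. The difference between the age changes, Scnn1b-Tg minus WT, was tested directly: 289 features were called above 0 (1.25%) and 272 below (1.18%), and at the adjusted p alone 438 lay above 0 (1.9%) and 433 below (1.87%). This count is less firm than those within a genotype. A fit on the 14 arrays of these ages alone called 45 features in place of 561. Among 106 named genes followed through the alternatives, 59 had a difference at the adjusted p alone. In the fit on 14 arrays 13 of the 59 still passed, and all 59 kept the sign in every alternative. Without WT PND 0 replicate 3 the count was 968, without Scnn1b-Tg PND 0 replicate 2 it was 960, and without Scnn1b-Tg PND 0 replicate 3 it was 633.

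**Figure D4:**
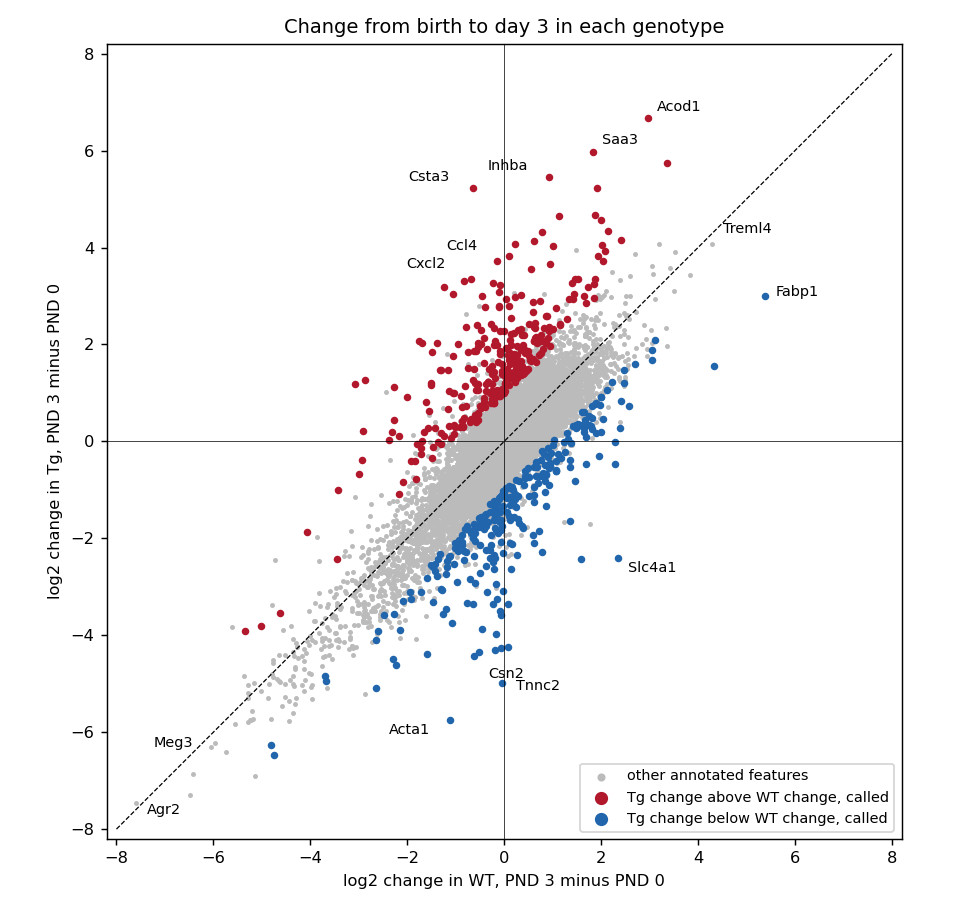
Log2 change from PND 0 to PND 3 in Scnn1b-Tg (vertical axis) against that in WT (horizontal axis) for 23099 annotated features. The dashed line marks equal change, and the 289 features above it and 272 below it whose difference was called are in red and blue. The inflammatory genes Acod1, Saa3, Inhba and Cxcl2 lie above the line, muscle and milk genes lie below it, and Agr2 and Meg3 lie close to it.

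In many inflammatory genes the age change lay higher in Scnn1b-Tg than in WT. The difference was above 0 for 14 of 20 NF-kB genes, 15 of 27 cytokines and mediators, 4 of 14 CXC and 3 of 15 CC chemokines and 11 of 27 genes of glycolysis and hypoxia, and below 0 for none of them. Not each of these differences stands for a larger rise in Scnn1b-Tg. Ier3, Osm, Csf2, Ccl2, Pgk1, Pgam1, Slc2a1 and Adm fell in WT and did not pass in Scnn1b-Tg. Cxcl1 averaged 3.94 ± 0.24 in the WT PND 3 pools and 3.72 ± 0.21 in the WT PND 0 pools (SD, n = 4 and 3), a difference of 3.87 from the transgenic change (adjusted p = 0.000153). For Cxcl2 the difference was 4.04, for Ccl4 3.87 and for Cd14 2.18. Ccl3 rose in Scnn1b-Tg by 2.04 and fell in WT by 1.39. Vegfa, which fell by 1.0 in Scnn1b-Tg, fell by 3.43 in WT. In Cxcl1, Cxcl2, Ccl4, Cd14, Ccl3 and Vegfa the difference passed in every alternative other than the test against a 2-fold change. It did so as well in Il1f9, Tnip1, Abca1, Slc16a3, Acta1, Tnnc2 and Tnnt3. The WT PND 3 pools were not alike: replicate 1 measured 9.15 for Saa3 and 8.95 for Acod1, beside 4.22 to 4.52 and 4.61 to 6.26 in the other 3. Without it, 58 of the 59 differences passed.

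Many of the gene groups described for Scnn1b-Tg also changed in WT. Of 29 lysosomal genes 21 rose in WT, and of 21 pattern-recognition receptors and adaptors 12 rose, with none falling in either list. Of 20 NF-kB genes 10 rose and 3 fell, and of 30 alveolar macrophage genes 16 rose and 4 fell. Siglecf rose by 2.89 and Itgax by 2.49 in WT. Of 15 imprinted genes 14 fell there, as did 18 of 24 fibroblast and matrix genes. Mitosis genes rose in WT as well, 26 of 26 with a median of 1.77, and for none of them did the test find a difference between genotypes. At PND 3 the mean signal of that list lay between 6.38 and 6.92 in the Scnn1b-Tg pools and between 7.18 and 7.33 in the WT pools. All 28 DNA replication genes rose in WT, and for 2 of them, Rrm2 and Pola1, the difference was below 0. Rrm2 rose by 3.04 there, more than in Scnn1b-Tg (a difference of -1.15, adjusted p = 0.0346), and the difference for Pola1 was -0.78. Fabp1 measured 6.01, 5.85, 5.92 and 7.52 in the Scnn1b-Tg PND 3 pools, against 7.20, 9.70, 9.50 and 9.05 in the WT PND 3 pools, and its rise in WT was 5.38 (a difference of -2.38, adjusted p = 0.0239). Club and secretory genes fell in WT in 19 of 20, with no difference called. Skeletal muscle genes did not follow: 1 rose and 1 fell in WT, and the difference was below 0 for 17 of 33. Acta1 measured 3.62, 4.72 and 4.95 and Tnnc2 2.71, 3.06 and 3.76 in the WT pools at birth. Milk protein genes did not pass in WT, and for 7 of 11 the difference was below 0. These lists set the transgenic PND 0 pools apart from the WT PND 0 pools as well as from PND 3.

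At later ages the genes took different courses. Over PND 0, 3, 10 and 42 in SPF Scnn1b-Tg mice, Acod1 averaged 3.41 ± 0.55, 10.08 ± 0.54, 7.39 ± 0.27 and 4.99 ± 0.72 (SD, n = 3, 4, 4 and 4), and Saa3 averaged 4.28 ± 0.87, 10.26 ± 0.93, 4.41 ± 0.64 and 3.12 ± 0.39. Inhba stayed high, with 4.15 ± 0.68, 9.61 ± 0.47, 8.88 ± 0.16 and 8.27 ± 1.05. Mmp12 was highest at the last pair of ages, at 7.76 ± 1.01, 9.60 ± 0.52, 10.47 ± 0.14 and 10.27 ± 0.23. Fabp1 went on upward, with 3.33 ± 0.35, 6.33 ± 0.80, 9.21 ± 0.28 and 10.23 ± 0.41, and Fabp4 dipped and returned, with 8.09 ± 0.20, 6.33 ± 0.24, 6.96 ± 0.86 and 8.73 ± 0.44. Ccl17 had the same course, with 9.46 ± 0.70, 6.46 ± 0.54, 8.78 ± 1.63 and 10.88 ± 0.30. Bub1 was near its PND 3 level at PND 10 and lower at PND 42, at 4.38 ± 0.56, 6.96 ± 0.29, 6.99 ± 0.18 and 6.35 ± 0.14, while Agr2, at 11.76 ± 0.14, 4.29 ± 0.44, 3.28 ± 0.11 and 3.83 ± 0.52, stayed low. The levels at PND 10 and 42 are given without a test.

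**Figure D5:**
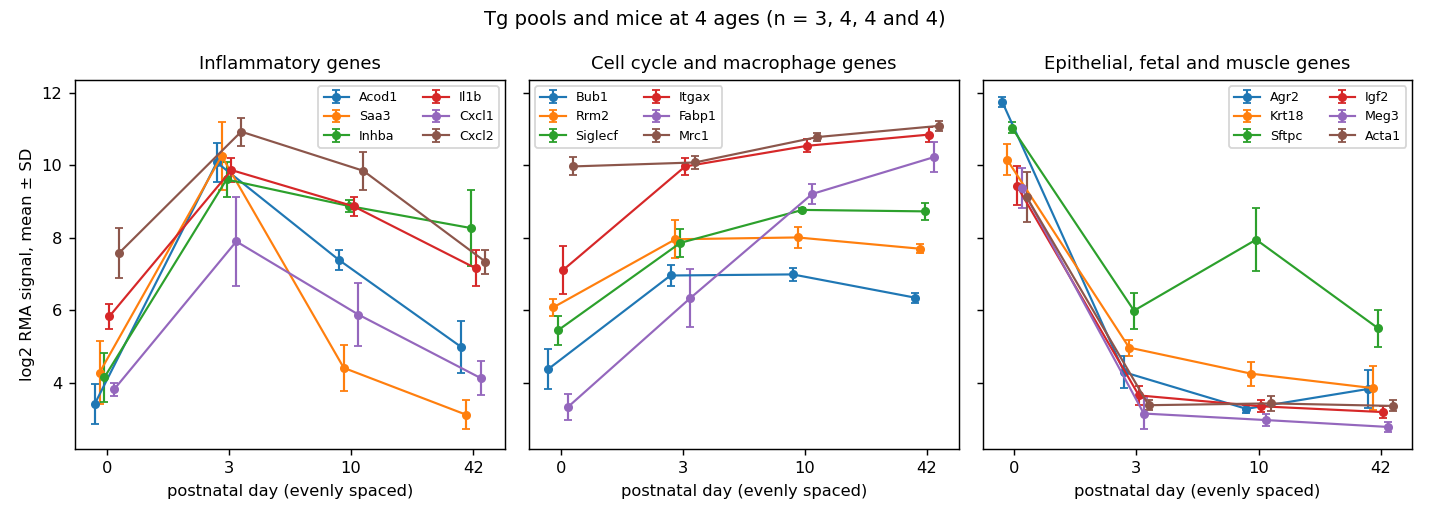
Mean log2 RMA signal with SD (vertical axis) of 18 genes in SPF Scnn1b-Tg mice at PND 0, 3, 10 and 42 (horizontal axis, evenly spaced; n = 3, 4, 4 and 4). Acod1 and Saa3 are highest at PND 3, Fabp1 is highest at PND 42, and Agr2, Igf2, Meg3 and Acta1 are high at PND 0 alone.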

How the data were processed

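The authors hybridised amplified cDNA to Mouse Gene 1.0 ST arrays and deposited log2 signals after RMA background correction, quantile normalization and median polish in Partek, 1 value per feature (version 6.5 per the labels, while the methods name another). The labels name pups pooled by 3 at PND 0, 3 and 10. Of 35556 rows in the deposited table, 6616 lie before the first annotated feature and were not analysed. The other 28940 were fitted by limma 3.58.1 (R 4.3.3) as 10 group means over 36 arrays, with Benjamini-Hochberg adjustment, and 23099 annotated features were counted. The age change in Scnn1b-Tg, that in WT and their difference were tested. A gene rose or fell at an adjusted p of at most 0.05. An exact permutation test of 4 pools against 3 cannot go below 0.0571 (two-sided), so none is given. Nothing says whether pools came from separate litters. The fit shares the residual variance of a feature over all 36 arrays, and per the paper the samples of the oldest age were single mice. The p-values therefore rest on a spread averaged over the 10 groups, between pools and between single mice. The PND 0 pools varied more, with standard deviations 1.28 (Scnn1b-Tg) and 1.38 (WT) times the average of all groups. For these pools the shared variance can understate the spread. The number of arrays limits the precision. Replicate numbers do not pair the pools.

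The members and lists were chosen with earlier results of these data known. The text names the 12 largest rises and falls, up to 4 leading members of each list and direction, the 6 largest differences of each sign and a set of key genes whatever their values. Xist, Mir146, Mir451a and further list members given for their roles were chosen after their values were seen. Settings tried in turn were other normalizations, filters, variance models and thresholds, fewer arrays, the replicate number as a block, an Xist term and each pool left out. Neutrophil Ly6g was not analysed here. Fits were checked on simulated data.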

Additional observations from a re-analysis of the deposited data

Results flagged for a closer look

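The age change from PND 0 to PND 3 differed between Scnn1b-Tg and WT for 561 annotated features (2.43%), and for 59 of the 106 named genes followed through the alternatives at the adjusted p alone (limma). The differences below are Scnn1b-Tg minus WT on the log2 scale. The cytokines, chemokines and receptors named next all rose in Scnn1b-Tg. In WT, Ccl3 fell (-1.39), and Inhba, Saa3, Cxcl1, Cxcl2, Cxcl3, Ccl4, Il1b, Cxcl16, Cd14 and Tnip3 did not pass. The difference was 4.54 for Inhba, 4.14 for Saa3, 4.04 for Cxcl2, 3.87 for Cxcl1, 3.87 for Ccl4, 3.54 for Cxcl3, 3.44 for Ccl3, 3.32 for Il1f9, 3.02 for Il1b, 2.28 for Cxcl16 and 2.21 for Ccrl2. Among genes of NF-kB feedback and microbial sensing it was 2.38 for Clec4e, 2.18 for Tnip3, 2.18 for Cd14, 1.69 for Tnip1, 1.69 for Clec4d, 1.45 for Nfkbie, 1.27 for Mir146, 1.16 for Nfkbid and 1.16 for Nlrp3. In genes that neutrophils also express it was 5.86 for Csta3, 4.12 for Asprv1, 3.84 for Lcn2 and 3.73 for Stfa3.

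Macrophage metabolism and remodelling genes differed as well. The difference was 3.70 for Acod1, 3.52 for Slc11a1, 2.81 for Pla2g7, 2.69 for Mmp14, 2.59 for Mmp12, 2.57 for Gpr84, 1.88 for Ctsk, 1.84 for Abca1, 1.74 for Slc7a11, 1.48 for Gla, 1.27 for Chil3, 1.23 for Slc16a3, 1.0 for Pfkl and 0.80 for Trem2. Vegfa fell in both genotypes and by less in Scnn1b-Tg (2.43), and Pdpn rose in Scnn1b-Tg alone at the adjusted p (3.15). Rrm2 and Fabp1 rose in both, with differences of -1.15 and -2.38.

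The other differences below 0 among the 59 lay in genes that fell in Scnn1b-Tg. For connective-tissue and imprinted genes they were -2.44 for Mfap5, -1.74 for Col1a1, -1.74 for Fmo2, -1.46 for Mir675 and -1.15 for Peg3. For muscle genes they were -4.93 for Tnnc2, -4.63 for Acta1, -3.83 for Tnnt3 and -3.82 for Car3, and for milk protein genes -4.12 for Csn1s2a, -3.80 for Csn2 and -3.52 for Glycam1. For genes high in red cells they were -4.73 for Slc4a1, -3.43 for Car2 and -3.06 for Tspo2, beside -4.33 for thyroglobulin and -4.0 for Rsad2. Further list members named for their roles also had a difference at the adjusted p alone. Among them, it was 3.38 for Ccl2, 3.19 for Csf1, 3.12 for Ier3, 2.91 for Igf2r, 2.36 for Csf3, 2.18 for Osm, 2.13 for Xdh, 2.07 for Ereg, 1.83 for Tnf, 1.49 for Tnfaip3, 1.38 for Il10, 0.91 for Hif1a and 0.64 for Csf2. In genes of glycolysis and hypoxia it was 2.68 for Hilpda, 1.10 for Slc2a1, 1.01 for Pgam1, 0.83 for Adm and 0.67 for Pgk1. Hilpda rose in Scnn1b-Tg and fell in WT (-1.52). For Tlr5, which rose in WT by 1.81 and did not pass in Scnn1b-Tg, it was -1.56.

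Single pools stood far from the other 3 of their group in 18 of the named genes, and chance alone marks about 1 in 20 groups. Scnn1b-Tg PND 3 replicate 4 was apart for Cxcl2 (10.35) and Fabp1 (7.52), replicate 2 for Tnip3 (7.03), Retnla (5.28) and Emp2 (3.93), replicate 3 for Bub1 (6.53) and Abca1 (9.04), and replicate 1 for Dlk1 (2.80) and Xist (3.11). WT PND 3 replicate 1 was apart for Saa3 (9.15), Cd14 (9.06), Stfa3 (7.21), Asprv1 (6.48), Vcan (5.87) and Siglecf (8.55), being above the other WT pools in all of these but Siglecf. WT PND 3 replicate 3 was apart for Lrrc23 (4.27) and Timp3 (4.08), and replicate 4 for Tnnt3 (3.97). Outside the annotated features, 287 analysed features with no annotation were called in Scnn1b-Tg, 107 higher at PND 3 and 180 lower.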

How the results depend on the processing

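With the count of features called in Scnn1b-Tg at 3180, testing against a 2-fold change gave 1228 (385 higher, 843 lower) and the adjusted p alone 7946. Leaving out dim features gave 2171 (64.1% higher), and leaving out each pool in turn gave 2867 to 3428. In WT the test against a 2-fold change gave 851, the adjusted p alone 6857 and leave-one-out 2393 to 3185, beside 2626. The count for the difference between genotypes, 561, was less steady: it was 45 on the 14 arrays alone, 25 against a 2-fold change, 322 with weights by group variance, 244 at an adjusted p of 0.01, 871 at the adjusted p alone and 378 to 968 with 1 pool left out. With the replicate number as a block the Scnn1b-Tg count was 3203, the WT count 2628 and that of the difference 513. The numbers do not pair the pools, since correlations of same-numbered pools were 0.0515, -0.0528 and 0.0137.

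For the 106 genes followed, 2251 of 2322 gene and alternative pairs kept direction and side of the threshold, and 65 lost the call. Changes near 0 turned sign for Pparg (0.20 with arrays centred on their medians, 0.12 without Scnn1b-Tg PND 0 replicate 3 and 0.06 without Scnn1b-Tg PND 3 replicate 3, within a leave-one-out range of -0.23 to 0.12), for Mrc1 (-0.02 with a repeated quantile normalization, while median centring gave a call at 0.35) and for Xist (-0.000 with its own term, which fixes it near 0). Of 1628 list counts, 1463 stayed within 1.5 times the main count. The Xist term, the 14-array fit and the rule on non-overlapping pools were added after seeing the data. Levels near background limit the size of the falls that could be measured. The cause of these shifts was not tested.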
